A study of Mus musculus with 6 samples.

Results

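The creatine kinase system of the heart was described through 8 genes of 52550 mouse genes counted: the creatine kinase genes Ckm, Ckmt2, Ckb and Ckmt1, the creatine synthesis genes Gatm and Gamt, the creatine transporter gene Slc6a8, and the adenylate kinase gene Ak1. The group was chosen because Ckmt2 had been noted as lower in mutant hearts in these same libraries, and its other members were taken by gene symbol for their roles. Differences between mutant and control hearts in these genes are therefore given as a description, with a standard error (SE) and a 95% interval. Counts of members called are given only beside the share over all genes, and nothing is drawn from them. The question of the study was how loss of the glucocorticoid receptor from cardiomyocytes alters gene expression in the heart shortly after birth. Whole hearts of mice at postnatal day 7 were used, 3 with a cardiomyocyte-specific deletion of the glucocorticoid receptor gene Nr3c1 (GR-cKO) and 3 controls (labelled ctrl). The labels call the 3 hearts of each group biological replicates and give neither the Cre line, the deleted exon, the strain nor the genotype of the controls. Whole hearts also hold endothelial cells, fibroblasts and other cells outside the cardiomyocyte-specific deletion. Each library was read from the 3′ end of polyadenylated transcripts, so that levels in CPM (reads scaled to a common library total) are not scaled by gene length. Reads approximate transcript numbers and are not exact counts of them.

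Creatine kinases move a phosphate group between ATP and creatine, and in muscle the resulting phosphocreatine buffers ATP and carries energy from mitochondria to sites of use. The muscle form (Ckm) sits at the M-band of the sarcomere and near ion pumps, the sarcomeric mitochondrial form (Ckmt2) works in the space between the mitochondrial membranes next to the adenine nucleotide translocator, and the brain form (Ckb) prevails in the early embryonic heart. Heart muscle takes up most of its creatine from the blood through Slc6a8, while Gatm and Gamt catalyse the successive steps of creatine synthesis, chiefly in kidney and liver. Adenylate kinase 1 (Ak1) forms a parallel cytosolic route of phosphate transfer.

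The promoters of the creatine kinase genes with the most reads are shown because their levels differ widely within the same heart and because, of the 3, only Ckmt2 was lower in every GR-cKO heart than in every control heart. The sequences are from RefSeq (GRCm38.p6), 250 bases before to 50 bases after the annotated start, written 5′ to 3′ on the gene's strand. Capitals mark the muscle E-box letters CAGCTG and the TATA box letters TATANA, searched on both strands. The window of Ckmt2 is chr13:91876836-91877135 on the minus strand, that of Ckm is chr7:19410844-19411143 on the plus strand, and that of Ckb is chr12:111672289-111672588 on the minus strand.
Ckmt2: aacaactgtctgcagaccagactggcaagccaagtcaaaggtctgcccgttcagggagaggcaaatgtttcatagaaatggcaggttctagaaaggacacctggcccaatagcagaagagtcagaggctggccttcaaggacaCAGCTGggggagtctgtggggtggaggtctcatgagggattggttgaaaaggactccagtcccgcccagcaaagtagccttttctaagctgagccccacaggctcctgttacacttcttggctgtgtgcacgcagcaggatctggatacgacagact
Ckm: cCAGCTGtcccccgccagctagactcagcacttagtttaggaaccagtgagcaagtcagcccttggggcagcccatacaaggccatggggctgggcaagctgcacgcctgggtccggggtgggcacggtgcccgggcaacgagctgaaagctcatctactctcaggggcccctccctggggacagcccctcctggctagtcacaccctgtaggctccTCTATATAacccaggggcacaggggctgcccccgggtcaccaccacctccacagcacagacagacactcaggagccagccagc
Ckb: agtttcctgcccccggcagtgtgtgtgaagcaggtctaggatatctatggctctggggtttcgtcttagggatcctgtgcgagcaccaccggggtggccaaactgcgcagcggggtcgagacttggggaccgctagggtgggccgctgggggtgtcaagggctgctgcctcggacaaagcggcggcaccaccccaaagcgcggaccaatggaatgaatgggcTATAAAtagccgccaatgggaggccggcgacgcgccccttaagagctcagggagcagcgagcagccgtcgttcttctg
The Ckmt2 window held CAGCTG beginning 107 bases before the start and no TATANA. In the Ckm window CAGCTG began 249 bases before the start, and TATANA matched at 31 bases before it on the plus strand, with an overlapping match on the minus strand that began at 33 bases. The Ckb window held TATANA at 28 bases before the start and no CAGCTG. Of 32851 RefSeq promoter windows of this length, 24.7% held TATANA and 16.3% held CAGCTG. RefSeq windows were found for 7 of the 8 members, Slc6a8 having no entry. The letters AGAACA, on which the glucocorticoid receptor response element is built, were in 19% of all windows and in none of these of the 7 members on either strand. The complete element, AGAACA and TGTTCT spaced by 3 bases, was in 3 of the 32851 windows, 0.00913%, and in none of a member. These matches describe letters in a short window and locate no binding site.

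Libraries held 18135540 to 20988286 reads in GR-cKO hearts and 19209410 to 22999192 reads in control hearts, of which 1.63 to 2.01% were synthetic spike-in transcripts. Nr3c1 was at 57.6, 49.2 and 56.2 CPM in GR-cKO hearts, against 114, 131 and 99.8 CPM in control hearts, and fell in the edgeR quasi-likelihood test (log2 fold change -1.08, SE 0.13, adjusted p = 0.00101). It was the only gene called of the 14860 tested, 0.00673% of them. Because the deleted exon is not given, it is not known whether reads of the 3′ end fall in the deleted stretch. In whole-heart RNA, fewer cells of a type and less RNA per cell cannot be told apart. Expression of Xist and of Y-linked genes marked 1 female and 2 male hearts in each group, replicate 1 being female in both. GR-cKO heart 3 stood apart from the other hearts. Its chi-square per degree of freedom over genes was 35.3 to 55.9 against each of them, beside 10.1 to 27.2 between all other pairs, and its scaling factor was 0.904, beside 1.01 to 1.06 in the others. In it 10.9% of reads came from Gm42418, the gene with the most reads in every library, against 5.47 and 7.1% in the other GR-cKO hearts and 6.26 to 7.69% in control hearts. That gene was picked after its values were seen. Without this heart the log2 fold changes of the members tested were -0.15 for Ckm, -0.44 for Ckmt2, 0.15 for Ckb, -0.18 for Gatm, 0.03 for Gamt, 0.15 for Slc6a8 and -0.11 for Ak1.

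Ckmt2, which encodes the sarcomeric enzyme of mitochondria (ENSMUSG00000021622, chr13:91853387-91876885), was at 542, 465 and 419.7 CPM in GR-cKO hearts, against 622, 735 and 688 CPM in control hearts. Every GR-cKO heart was below every control heart, and GR-cKO heart 1 came nearest to the controls. The means were 475 ± 61.8 CPM in GR-cKO hearts and 682 ± 56.7 CPM in control hearts (SD, n = 3 each). The fitted level in GR-cKO hearts was 0.697 times that in control hearts, with a 95% interval of 0.587 to 0.829 (log2 fold change -0.52, SE 0.12). These values rest on 7802 to 9853 reads per GR-cKO library and 13126 to 14300 reads per control library. Leaving out 1 heart at a time moved its log2 fold change between -0.62, without GR-cKO heart 1, and -0.44, without GR-cKO heart 3.

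Ckm, the muscle creatine kinase (ENSMUSG00000030399, chr7:19404776-19422841), was the most abundant member and ranked 34 in mean CPM among the genes tested. Its levels were 2258, 2013 and 2615 CPM in GR-cKO hearts, against 2334, 2587 and 2198 CPM in control hearts. The groups overlapped fully, with the lowest and the highest heart both GR-cKO. From them came a log2 fold change of -0.05 (SE 0.12, 95% interval -0.29 to 0.19), with means of 2295 ± 302.9 CPM in GR-cKO hearts and 2373 ± 197 CPM in control hearts.

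Ckb, the brain-type creatine kinase (ENSMUSG00000001270, chr12:111669361-111672338), was at 149, 137 and 108 CPM in GR-cKO hearts, against 134, 115 and 139 CPM in control hearts. The control hearts lay within the span of the GR-cKO hearts. Its log2 fold change was 0.03 (SE 0.13, 95% interval -0.25 to 0.30). Reads of Ckb could be shared with the pseudogenes Gm12892, 98.99% identical over 198 bases of the 3′ end, and Ckb-ps1. These held at most 5 and 7 reads in any library. How reads matching several genes were counted was not examined, so these counts do not show whether Ckb lost reads. Ckmt1, the mitochondrial form of tissues other than striated muscle (ENSMUSG00000000308, chr2:121357714-121363737), had 2, 2 and 9 reads in GR-cKO hearts, against 0, 1 and 0 reads in control hearts. Apart from the 9 reads of GR-cKO heart 3 these counts were at or under the floor of 3 reads per library, 0.131 to 0.168 CPM, so that Ckmt1 was not detectable at this depth in most hearts. It did not pass the filter on low counts and has no fold change.

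**Figure D1:**
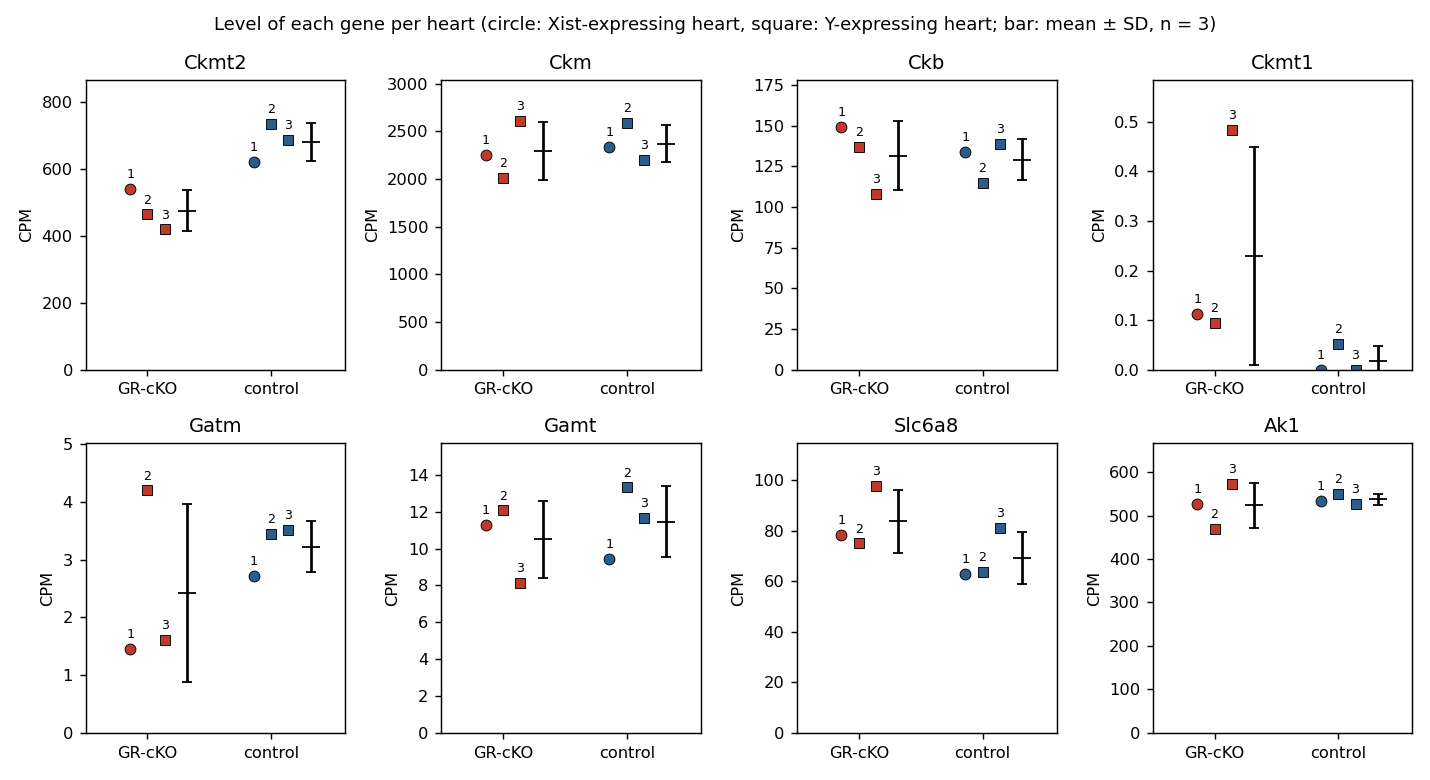
Level of each of the 8 genes in CPM (y axis, from 0) in every heart, GR-cKO (red) left of control (blue), numbered by replicate, with circles for hearts with Xist and squares for hearts with Y-linked reads, and a bar for the mean ± SD of 3 hearts. For Ckmt2 the GR-cKO hearts sit between 419.7 and 542 CPM, all below the control hearts at 622 to 735 CPM, while in the other tested genes the groups overlap.

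Gatm, the arginine:glycine amidinotransferase that starts creatine synthesis (ENSMUSG00000027199, chr2:122594467-122611303), was at 1.45, 4.20 and 1.61 CPM in GR-cKO hearts, against 2.71, 3.44 and 3.51 CPM in control hearts. In GR-cKO, hearts 1 and 3 were below the control hearts and heart 2 was above them. The counts behind these levels were 26, 89 and 30 reads in GR-cKO hearts, and 62 to 67 reads in control hearts. The log2 fold change of -0.40 had a wide interval (SE 0.42, 95% interval -1.29 to 0.48) and moved to -1.07 without GR-cKO heart 2 and to -0.14 without GR-cKO heart 1. Gamt, the methyltransferase that completes the synthesis (ENSMUSG00000020150, chr10:80258151-80261012), was at 11.3, 12.1 and 8.12 CPM in GR-cKO hearts, against 9.44, 13.3 and 11.6 CPM in control hearts. The groups overlapped, and GR-cKO heart 3 was the lowest of the 6. Its log2 fold change was -0.13 (SE 0.22, 95% interval -0.59 to 0.34).

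Slc6a8, the X-linked creatine transporter (ENSMUSG00000019558, chrX:73673150-73682502), was at 78.2, 74.9 and 97.7 CPM in GR-cKO hearts, against 62.7, 63.5 and 81.0 CPM in control hearts. Of the control hearts, 1 and 2 were below every GR-cKO heart, and heart 3 was above GR-cKO hearts 1 and 2. Its log2 fold change of 0.28 was the largest positive one among the 7 members tested (SE 0.13, 95% interval -0.01 to 0.56). It ranged from 0.15 without GR-cKO heart 3 to 0.41 without control heart 3. Slc6a8 reads were many times those of Gatm in every heart. Ak1 (ENSMUSG00000026817, chr2:32621758-32635058) was at 527, 470.0 and 572 CPM in GR-cKO hearts, against 534, 551 and 526 CPM in control hearts. The narrow range of the control hearts lay inside that of the GR-cKO hearts. Its log2 fold change was -0.04 (SE 0.11, 95% interval -0.27 to 0.19).

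In mean CPM the order was Ckm, Ckmt2, Ak1, Ckb, Slc6a8, Gamt, Gatm and Ckmt1 in control hearts. In GR-cKO hearts Ak1, at 523 ± 51.3 CPM, stood above Ckmt2, at 475 ± 61.8 CPM, while in control hearts Ckmt2 was at 682 ± 56.7 CPM and Ak1 at 537 ± 12.5 CPM. The GR-cKO ranges of this pair overlapped, since GR-cKO heart 1 had more Ckmt2 than Ak1, and the control ranges did not. Every other neighbouring pair of that order was separated in every heart. Among the 7 members tested, 5 were lower and 2 higher in the fit, and the median log2 fold change was -0.05, beside 0.01 over the 14860 genes. None of the 7 was called by edgeR or by DESeq2, beside 1 in edgeR and 3 in DESeq2 of all genes tested. At an unadjusted edgeR p under 0.05, 1 of the 7, Ckmt2, was lower, as were 2.13% of all genes tested (2.07% were higher). All GR-cKO hearts were below all control hearts in 1 of the 7, beside 5.27% of all genes tested, and all above in 0 of the 7, beside 4.7% of all genes. Nothing is read from these counts, because Ckmt2 was chosen on the same contrast.

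Ratios within a library do not depend on how libraries are scaled. Per 100 Ckm reads there were 24.0, 23.1 and 16.1 Ckmt2 reads in GR-cKO hearts, against 26.6, 28.4 and 31.3 in control hearts. The groups did not overlap, and the lowest ratio was that of GR-cKO heart 3. Every ratio or share of Ckmt2, here and below, carries the contrast on which it was chosen and is a description. As a share of the reads of the 4 creatine kinase genes, Ckmt2 made up 18.4, 17.8 and 13.4% in GR-cKO hearts, against 20.1, 21.4 and 22.8% in control hearts. Its mean share was 16.5 ± 2.74% in GR-cKO hearts and 21.4 ± 1.32% in control hearts (SD, n = 3 each). The difference of -4.92 percentage points became -3.35 without GR-cKO heart 3. The share of Ckm was 78.9 ± 3.72% in GR-cKO hearts and 74.5 ± 1.59% in control hearts, and that of Ckb was 4.58 ± 0.997% in GR-cKO hearts and 4.09 ± 0.656% in control hearts. Because the shares sum to a fixed total, a lower share of Ckmt2 by itself raises those of Ckm and Ckb. Summed over the 4 genes, the creatine kinases reached 2949, 2615 and 3143 CPM in GR-cKO hearts, against 3090, 3437 and 3025 CPM in control hearts. These sums overlapped, since Ckm dominated them.

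By contrast, Ak1 per 100 Ckm reads was alike in its range, at 21.9 to 23.4 in GR-cKO hearts and 21.3 to 23.9 in control hearts. Ckmt2 was also set against genes of its mitochondrial surroundings. Per 100 reads of Slc25a3, the mitochondrial phosphate carrier, Ckmt2 had 45.5, 42.5 and 32.4 reads in GR-cKO hearts, against 52.7, 51.6 and 54.7 in control hearts. Per 100 reads of Slc25a4, the adenine nucleotide translocator of heart and muscle, Ckmt2 had 12.0, 9.43 and 8.53 reads in GR-cKO hearts, against 10.8, 13.0 and 13.7 in control hearts. Against Slc25a3 the groups were apart, whereas against Slc25a4 GR-cKO heart 1 was above control heart 1.

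**Figure D2:**
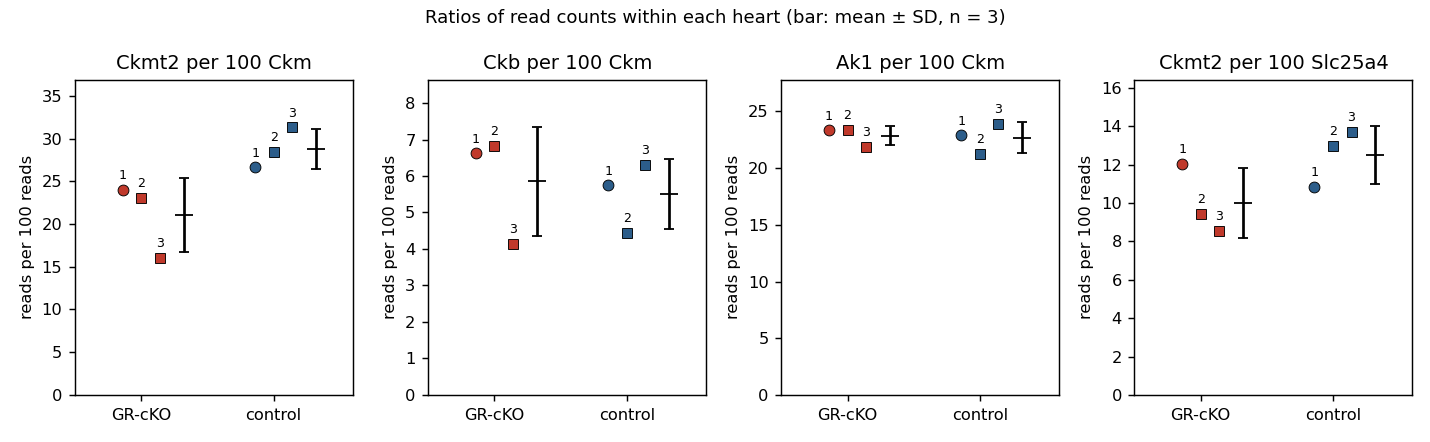
Reads of 1 gene per 100 reads of another within each heart (y axis, from 0), GR-cKO (red) left of control (blue), with circles for hearts with Xist and squares for hearts with Y-linked reads, and a bar for the mean ± SD of 3 hearts. Ckmt2 per 100 Ckm is 16.1 to 24.0 in GR-cKO hearts and 26.6 to 31.3 in control hearts, while Ckb and Ak1 per 100 Ckm and Ckmt2 per 100 Slc25a4 overlap between the groups.

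The hearts were also compared within each sex, a split made after the data had been seen. The female GR-cKO heart had 542 CPM of Ckmt2, against 622 CPM in the female control heart, a ratio of 0.871. The male GR-cKO hearts averaged 442 CPM, against 712 CPM in the male control hearts, a ratio of 0.621. That the ratio was below 1 in both sexes follows from the groups not overlapping, and the ratios are a description, with 1 female heart per group. For Slc6a8 the ratio was 1.25 in the female hearts and 1.19 in the male hearts. Gamt and Ckb had ratios on both sides of 1, at 1.19 for Gamt and 1.12 for Ckb in female hearts and at 0.809 and 0.967 in male hearts.

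Cardiomyocyte content was examined through 12 cardiomyocyte marker genes, which summed to 78300 to 93800 CPM in GR-cKO hearts and 72100 to 83000 CPM in control hearts. None was called, beside 1 of the 14860 genes tested, and 9 of the 12 had a positive and 3 a negative fitted change. The most abundant, the light chain gene Myl3 and the alpha myosin heavy chain gene Myh6, had log2 fold changes of 0.20 and 0.12 and overlapped between the groups. Per 1000 reads of the 12 markers, Ckmt2 had 6.04, 5.94 and 4.47 reads in GR-cKO hearts, against 7.50, 10.2 and 8.33 in control hearts. The groups did not overlap on this scale, which restates the contrast on which Ckmt2 was chosen. The part of cardiomyocyte content in the level of Ckmt2 was not tested. Ckm had 25.2, 25.7 and 27.9 reads per 1000 marker reads in GR-cKO hearts, against 28.1, 35.9 and 26.6 in control hearts, which overlapped.

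Skeletal muscle markers, 12 in all, summed to 29.5 to 31.8 CPM in GR-cKO hearts and 23.1 to 26.7 CPM in control hearts, and 6 of them passed the filter on low counts. These sums did not overlap, but amounted to 31.8 CPM at most. All 6 skeletal muscle markers tested had a positive fitted change. Adipose markers, 10 in all with brown fat included, summed to 1160 to 1420 CPM in GR-cKO hearts and 1160 to 1630 CPM in control hearts, the highest being control heart 2, with Lep and Retn at 0 in all hearts. Fabp4, the most abundant of them, was at 1156 ± 115 CPM in GR-cKO hearts and 1179 ± 151 CPM in control hearts. It made up most of each sum, so that the sums describe mainly Fabp4 and say little about the other adipose markers. Adipoq, picked after its values were seen, was at 0 CPM in GR-cKO heart 1 and in control heart 3. Of the 6 adipose markers tested, 5 had a negative and 1 a positive fitted change, with a median log2 fold change of -1.54. That median is poorly determined. Adipoq, Plin1 and Cidec, picked after their values were seen, had SEs of 2.11, 1.61 and 2.03 and were highest in control heart 2. Ucp1, the uncoupling protein of brown fat picked here after its values were seen, was at 0, 18.8 and 3.93 CPM in GR-cKO hearts, against 6.78, 89.3 and 0.42 CPM in control hearts. Its log2 fold change was -2.06 (SE 2.165). Control heart 2 thus had both the most Ucp1 and the most Ckmt2. Without it the log2 fold change of Ckmt2 was -0.46. Of the 6 kidney and liver markers, Umod, Slc34a1 and Kap were at 0 in all hearts, and the list summed to 1.56 to 1.73 CPM in GR-cKO hearts and 1.42 to 1.84 CPM in control hearts. Smooth muscle and mural markers, 8 in all, summed to 1760 to 1950 CPM in GR-cKO hearts and 1440 to 1690 CPM in control hearts, with Acta2, the smooth muscle actin gene, at 1103 ± 18.6 CPM in GR-cKO hearts and 807 ± 106 CPM in control hearts. Acta2 carried that separation: without it the smooth muscle sums were 639 to 862 CPM in GR-cKO hearts and 725 to 763 CPM in control hearts, and of the 8 markers 4 had a positive and 4 a negative fitted change. The part of smooth muscle, skeletal muscle and fat RNA in the levels of the members was not tested. Sums of the remaining lists overlapped between the groups. For 6 endothelial markers they were 1610 to 1790 CPM in GR-cKO hearts and 1470 to 1710 CPM in control hearts, and for 6 fibroblast markers 2130 to 2290 CPM in GR-cKO hearts and 2150 to 2710 CPM in control hearts. For 6 nerve markers they were 9.49 to 22.8 CPM in GR-cKO hearts and 10.6 to 22.5 CPM in control hearts, for 4 epicardial markers 19.5 to 41.6 CPM in GR-cKO hearts and 25.2 to 29.7 CPM in control hearts, and for 7 erythroid markers 6800 to 7790 CPM in GR-cKO hearts and 6560 to 9230 CPM in control hearts.

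The surrounding pathways were described through 81 genes in 6 lists, of which 68 passed the filter on low counts. None of the 68 was called in either direction by edgeR or DESeq2, beside 1 in edgeR and 3 in DESeq2 of the 14860 genes tested. With so few calls over all genes, 0 called in a list below is no result about that list. At an unadjusted edgeR p under 0.05, 4 of the 68 were higher, beside 2.07% of all genes tested, and 2 were lower, beside 2.13% of all genes. In 6 of the 68 all GR-cKO hearts were below all control hearts, beside 5.27% of all genes tested. In 3 of the 68 they were all above, beside 4.7% of all genes. Some genes are named below for the smallest p of their list, so that groups lying apart in them is no finding. The median log2 fold change was 0.01 over the 68 genes, as over all genes tested. The edgeR adjusted p of every listed gene named here lay between 0.998 and 1.

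In the list of mitochondrial adenine nucleotide and phosphate exchange, the functional neighbours of Ckmt2, 0 of the 8 genes tested were called, 6 were lower and 2 higher, and the median log2 fold change was -0.10. Slc25a4 was at 4506, 4928 and 4917 CPM in GR-cKO hearts, against 5742, 5669 and 5026 CPM in control hearts. All GR-cKO hearts were below all control hearts, by a log2 fold change of -0.20 (SE 0.10). Slc25a3 was at 1193 ± 103 CPM in GR-cKO hearts and 1288 ± 125 CPM in control hearts. Mtx1, an outer-membrane protein of mitochondrial import, was at 25.9 ± 1.68 CPM in GR-cKO hearts and 21.3 ± 1.98 CPM in control hearts, with all GR-cKO hearts above all control hearts (log2 fold change 0.28).

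Among the M-band and ATPase partners of Ckm, 0 of 8 genes tested were called, with a median log2 fold change of 0.01. The M-band protein gene Myom1 was at 1156 ± 137 CPM in GR-cKO hearts and 1043 ± 112 CPM in control hearts. Trim63, a ubiquitin ligase of the M-band, was at 201 ± 72.3 CPM in GR-cKO hearts and 247 ± 15.7 CPM in control hearts. The sarcoplasmic calcium pump gene Atp2a2 was at 4649 ± 737 CPM in GR-cKO hearts and 4655 ± 144 CPM in control hearts. Each of these differences was smaller than the larger SD of the pair.

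Of the arginine, glycine and methyl group supply that feeds creatine synthesis, 18 of 22 genes were tested and 0 called. Slc7a2, a cationic amino acid transporter that takes up arginine, was at 4.80, 2.59 and 5.49 CPM in GR-cKO hearts, against 7.30, 6.17 and 6.61 CPM in control hearts (log2 fold change -0.64, SE 0.30). Shmt1, the cytosolic serine hydroxymethyltransferase that makes glycine, was at 11.1, 14.6 and 15.1 CPM in GR-cKO hearts, against 18.6, 18.2 and 16.2 CPM in control hearts. Both had all GR-cKO hearts below all control hearts. The taurine transporter gene Slc6a6, a relative of Slc6a8, was at 213 ± 16.9 CPM in GR-cKO hearts and 199 ± 30.4 CPM in control hearts. Mat2a, which makes the methyl donor used by Gamt, was at 255 ± 29.2 CPM in GR-cKO hearts and 243 ± 9.26 CPM in control hearts. Arg2 and Bhmt had 0 reads in every heart.

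Adenylate and nucleoside kinases other than Ak1 gave 0 calls among 9 tested. The matrix kinase gene Ak3 was at 50.8 ± 7.24 CPM in GR-cKO hearts and 58.3 ± 1.32 CPM in control hearts. Nme1, a nucleoside diphosphate kinase, was at 97.1 ± 10.5 CPM in GR-cKO hearts and 93.5 ± 10.5 CPM in control hearts. Neither gene separated the groups.

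Among AMP sensing and breakdown genes, through which cells read a falling energy charge, 0 of 12 tested were called, 9 were higher and 3 lower, and the median log2 fold change was 0.09. Prkag3, a regulatory subunit of the AMP-activated kinase known from skeletal muscle, was at 6.76, 7.22 and 4.14 CPM in GR-cKO hearts, against 3.28, 2.98 and 3.25 CPM in control hearts. All GR-cKO hearts were above all control hearts (log2 fold change 0.93, SE 0.30, edgeR adjusted p = 0.998). Prkag1, another such subunit, was at 142, 147 and 202 CPM in GR-cKO hearts, against 145, 111 and 141 CPM in control hearts, and overlapped. Stk11, the kinase upstream of it, was at 107 ± 5.41 CPM in GR-cKO hearts and 101 ± 7.94 CPM in control hearts.

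Known transcriptional regulators of muscle creatine kinase genes and of oxidative metabolism gave 0 calls among 13 tested, 4 higher and 9 lower. Ppargc1b, which coactivates genes of oxidative metabolism, had levels of 97.4, 100.1 and 114 CPM in GR-cKO hearts, against 92.7, 77.2 and 80.3 CPM in control hearts. Esrrb, an orphan nuclear receptor, was at 8.98 ± 1.79 CPM in GR-cKO hearts and 12.6 ± 2.13 CPM in control hearts. The groups of both genes did not overlap, higher in GR-cKO for Ppargc1b and lower for Esrrb. Srf, which binds the Ckm enhancer in muscle, was at 269 ± 79.6 CPM in GR-cKO hearts and 204 ± 30.8 CPM in control hearts, and Mef2a at 260 ± 24.6 CPM in GR-cKO hearts and 233 ± 17.4 CPM in control hearts. Myod1 had 0 reads in every heart.

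**Figure D3:**
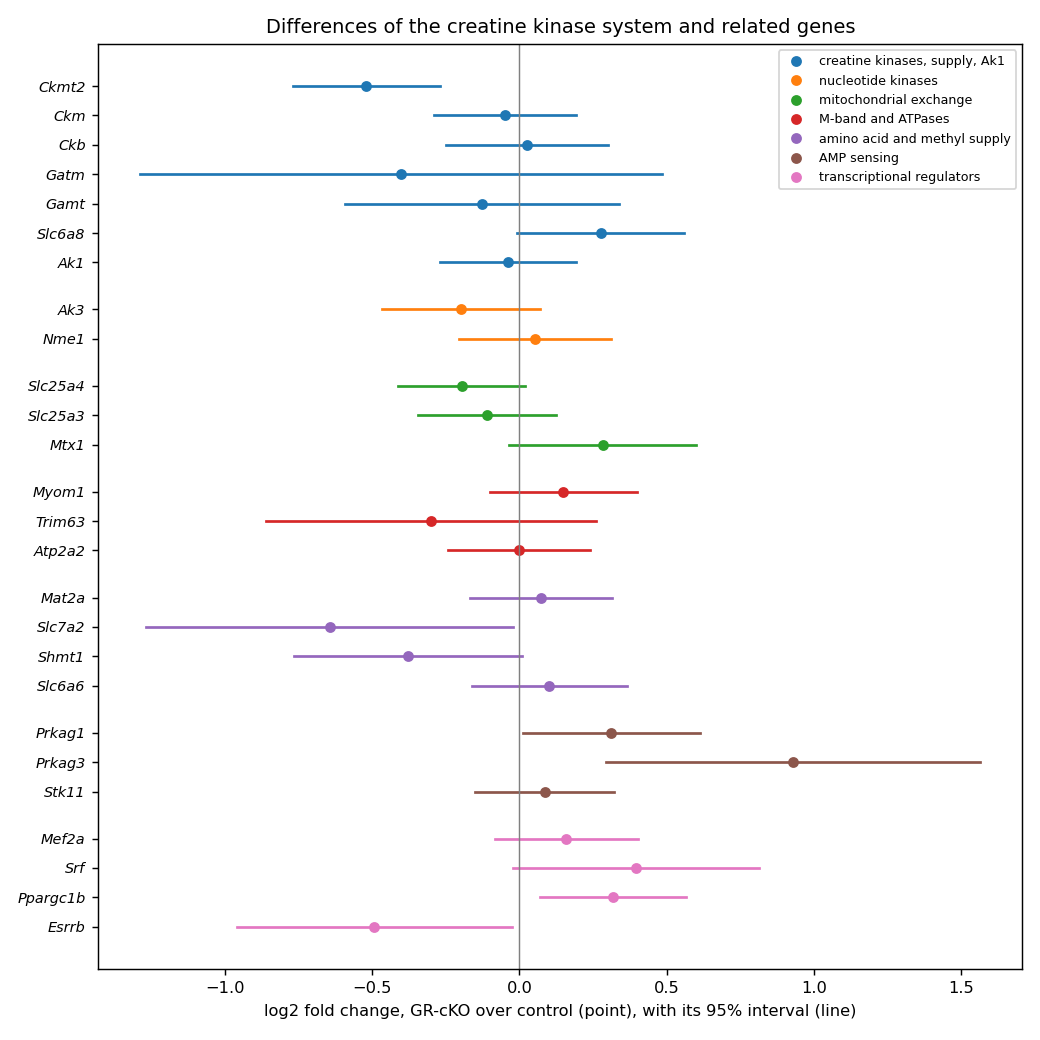
Log2 fold change of GR-cKO over control (x axis, points) with its 95% interval (lines) for the 7 members tested and for genes named from the 6 pathway lists, coloured by list. The interval of Ckmt2 is -0.77 to -0.27, which is no evidence of a change because Ckmt2 was chosen on this contrast. No gene drawn was called after adjustment over all genes.

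The genes whose levels across the 6 hearts were most like those of Ckmt2 were found by the root mean square difference of log2 CPM, each gene centred on its own mean, among 3120 genes with a mean of at least 50 CPM. They were Lpl (0.102), Fxyd6 (0.104), Myzap (0.119), Col5a2 (0.127) and Lamtor3 (0.139), the measure being in log2 units. Lpl encodes lipoprotein lipase, Myzap a protein of the cardiac intercalated disc and Col5a2 a fibrillar collagen chain. Lpl was at 2067, 1689 and 1587 CPM in GR-cKO hearts, against 2055, 2327 and 2307 CPM in control hearts, so that GR-cKO heart 1 lay just above control heart 1. Fxyd6 was at 46.2 ± 10.1 CPM in GR-cKO hearts and 66.0 ± 2.15 CPM in control hearts. As a likeness to Ckmt2 was asked for, their being lower in GR-cKO is not a finding. No other member was among them. Gamt and Gatm, at mean levels of 10.98 and 2.82 CPM, lay under the limit of 50 CPM and could not be. The measure was 0.244 for Gamt, 0.293 for Ak1, 0.307 for Ckm, 0.311 for Ckb, 0.469 for Slc6a8 and 0.505 for Gatm. It also depends on how much a gene varies, so these values do not rank the members by likeness of pattern. With a lower limit of 10 CPM, 8418 genes were candidates and 0 of the 5 stayed among the nearest.

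**Figure D4:**
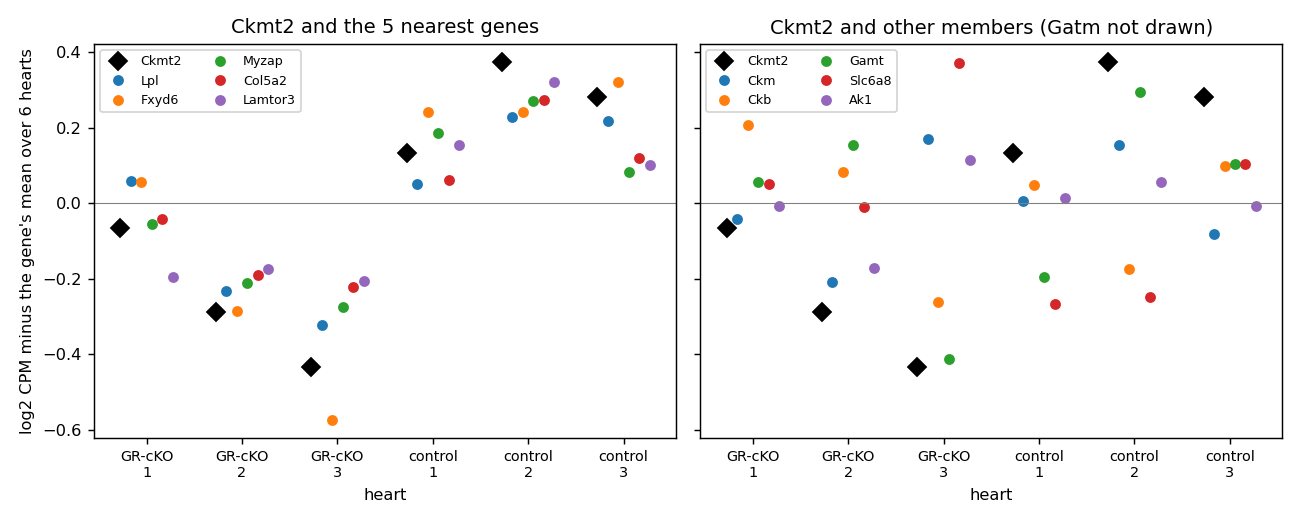
Log2 CPM of each gene minus its own mean over the 6 hearts (y axis) in each heart (x axis), with Ckmt2 as black diamonds beside its 5 nearest genes (left panel) and beside 5 other members (right panel). Ckmt2 runs from -0.07 to -0.43 in GR-cKO hearts and from 0.13 to 0.37 in control hearts, and the other members drawn show no such split.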

How the data were processed

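Gene expression was measured by 3′ RNA sequencing in 6 mouse hearts, 3 GR-cKO and 3 control, 1 library each. Per the labels' protocols, the NucleoSpin RNA II kit gave the RNA, and 100 ng of it went into QuantSeq 3′ mRNA-Seq FWD libraries. The deposited files hold raw counts of reads per Ensembl gene. The submitters' processing notes name STAR 2.5.4a, featureCounts 1.6.2, cutadapt 1.16, FastQC 0.11.7, MultiQC 1.5, bcl2fastq, DESeq2 1.18.1 and build GRCm38. Annotation release and strand setting were not given in the sources used here, so antisense reads cannot be told apart. The antisense or opposite-strand genes A930016O22Rik at Ckm, 1700119I11Rik at Ckmt2 and Strc at Ckmt1 held at most 5, 3 and 2 reads.

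Spike-in rows (92 ERCC and 7 SIRV) did not enter library sizes or tests. In R 4.3.3 with edgeR 4.0.16, genes were filtered with filterByExpr, which kept 14860, scaled by the trimmed mean of M-values and tested with the quasi-likelihood F test, with Benjamini-Hochberg adjustment over all genes tested and a threshold of 0.05. CPM values use the same scaling. Log2 CPM used a prior count of 2. SEs and intervals come from the quasi-likelihood fit, in which the spread of a gene between hearts is moderated by that of all genes tested. They are therefore not the gene's own spread over 3 hearts per group. The floor of 3 reads covers counting error only. The fit was tested on simulated data. DESeq2 1.42.0, other scalings, no filter, a sex term, a replicate block and leaving out each heart were the alternatives, with ratios within each sex added after seeing the data. For the counts of calls, DESeq2 was run on all mouse genes with its own filtering and adjustment. Its calls were then counted among the 14860 genes kept for edgeR. Symbols and positions came from GENCODE M21.

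The members and gene lists were chosen with earlier results of these data known. The genes named are the 8 members, Nr3c1, the 2 most abundant and the 2 with the smallest p of each pathway list, up to 2 of the most abundant genes of each marker list, and the 5 genes nearest to Ckmt2, with exceptions marked as picked after their values were seen. Some genes that this rule names are not reported here. None of the 62 marker genes tested was called by edgeR or DESeq2, beside 1 in edgeR and 3 in DESeq2 of all genes tested. At an unadjusted edgeR p under 0.05, 1 of the 62 was higher and 0 lower, beside 2.07% higher and 2.13% lower among all genes tested.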

Additional observations from a re-analysis of the deposited data

How the results depend on the processing

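Over 13 alternatives the 7 members tested gave 91 log2 fold changes, of which 90 lay within 1 SD between hearts of the value reported. The exception was Gatm, at -1.07 without GR-cKO replicate 2. The log2 fold change of Ckmt2 was -0.52 with DESeq2 size factors, -0.55 with library totals, -0.47 with ERCC spike-in scaling, -0.52 with no low-count filter, -0.52 in DESeq2 and -0.52 with a sex term, and -0.62 to -0.44 with 1 heart left out. Leaving out 1 heart at a time gave -0.15 to 0.04 for Ckm, -0.07 to 0.15 for Ckb, -0.25 to 0.03 for Gamt and -0.11 to 0.03 for Ak1, so these 4 took both signs. Over all genes, 1 was called lower and 0 higher. The count called lower was 2 with library totals, 6 with no low-count filter, 3 in DESeq2, and 1 to 2 with 1 heart left out, and the count called higher was 4 with no low-count filter. Ckmt2 was among the 6 and in no other of these sets, which is no evidence as it was chosen on this contrast, Nr3c1 was in each, and the cause was not tested. No scaling moved the median of all genes by more than 0.04 on the log2 scale. The ratio of the share of Ckm, GR-cKO over control, was 1.06 among creatine kinase reads and 0.937 among all mouse gene reads. The correlations of same-numbered hearts were 0.06, 0.06 and 0.01, and those of the other pairs were -0.09 to 0.03. GR-cKO hearts 1 and 2 correlated best with the control heart of the same number, and GR-cKO heart 3 with control heart 2. Values this weak cannot decide whether the replicate numbers pair the hearts. With the replicate block the log2 fold change of Ckmt2 was -0.52 and 1 gene was called. Gatm and Ckmt1 have too few reads for small differences to be detected, with 26 to 89 reads of Gatm per library.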
